A study of Rattus norvegicus with 12 samples.

Results

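Arc and Ptgs2 are stimulus-induced genes that followed different time courses in primary rat midbrain astrocytes given the compound PT109B, which the labels name only by this code. They are the 2 of 9721 genes in the deposited table whose symbol is Arc (ENSRNOG00000043465) or Ptgs2 (ENSRNOG00000002525), and both were among the 9491 genes kept for testing. The pair was chosen for its levels over all 4 groups of libraries, so the levels and fold changes of these 2 genes are described without a test. The study's title concerns the conversion of astrocytes to dopaminergic neurons by PT109B, and this time course covers its first hours.

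The 4 groups held 3 libraries each: an untreated control (0 h) and cultures given 10 µM PT109B for 1.5 h, 3 h or 6 h. Every group came from astrocytes of the midbrain of newborn SD (Sprague-Dawley) rats of WT genotype, cultured in DMEM with 10% fetal bovine serum and antibiotics. Total RNA was sequenced in bulk after NEBNext Ultra library preparation, and the labels give neither a vehicle nor a separate control for the later times. They also do not say whether the replicates of a group were separate cultures, and where they were not, a p-value reflects technical spread alone.

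Arc encodes a neuronal protein with a retrotransposon Gag origin that binds the endocytic machinery and removes AMPA-type glutamate receptors from synapses. Its gene is a classic immediate early gene: synaptic activity, calcium and growth factor signalling switch it on without new protein synthesis, and its messenger RNA is short-lived. Ptgs2 encodes the inducible cyclooxygenase (COX-2), which turns arachidonic acid into the precursor of the prostaglandins and thromboxane, whereas its relative Ptgs1 (COX-1) is usually described as constitutive. In the brain Ptgs2 is known both as an activity-regulated gene of neurons and as an inflammatory gene of glia and vessels, and its messenger RNA carries elements that proteins such as tristetraprolin (Zfp36) use to destabilise it.

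Total counts ranged from 9368967 to 12498047 per library. In each treated group 1 library stood apart: 1.5 h replicate 3, 3 h replicate 3 and 6 h replicate 1 correlated with the others of their group at r of 0.897 to 0.945 across genes, against 0.985 to 0.992 for all other pairs within a group. The 20 microglia markers had a mean log2 CPM of 3.49 and 3.55 in 1.5 h replicates 1 and 2, 6.89 in replicate 3, 6.53 to 6.78 in the control libraries and 5.87 to 6.68 at the later times. Markers of other cell types also differed in those 2 libraries: 11 fibroblast and meningeal markers summed to 5625 and 5842 CPM there, against 1330 to 1693 in the control and 1430 in 1.5 h replicate 3. The 11 markers of oligodendrocyte lineage had a mean log2 CPM of 5.66 and 5.73, against 4.43 to 4.79 in the control and 4.52 in replicate 3. The 8 endothelial markers were at 0.94 and 0.89, against 2.37 to 2.59 and 2.57. The 20 mitosis genes were at 6.01 to 6.52 in the control and 1.5 h libraries, at 2.68 or less in the concordant pairs at 3 h and 6 h, and at 5.73 and 5.72 in the library standing apart at each of those times. In bulk RNA, fewer cells of a type and less RNA per cell cannot be told apart. Of 16 astrocyte markers 13 were in the table. Gfap, the astrocyte intermediate filament gene, was between 215 and 877 FPKM (fragments scaled to transcript length and library size) in all libraries, and the water channel gene Aqp4 between 77.1 and 302. None of the 13 was called at 1.5 h. Sox9, a glial transcription factor, rose at 3 h (1.10 ± 0.12, adjusted p = 0.000241) and 6 h (0.49 ± 0.12, adjusted p = 0.0123), and Gfap, Fgfr3 and Nfib fell by 0.85, 0.72 and 0.76 at 6 h (adjusted p = 0.0353, 0.0313 and 0.00181). Of 25 neuron markers 19 were in the table, with a mean log2 CPM of 3.20 to 3.79 in the control, 3.30 to 4.17 at 1.5 h, 2.74 to 3.55 at 3 h and 2.97 to 3.34 at 6 h. Their summed CPM, in which abundant members weigh more, went the other way. It was 517 to 618 in the control and 546 to 683 at 1.5 h. In the concordant pairs it was 1508 and 1369 at 3 h and 1221 and 1180 at 6 h, against 596 and 506 in the libraries standing apart. The neuronal genes Snap25 and Rbfox3 were not analysed here. Against control, edgeR called 185 genes higher and 130 lower at 1.5 h, 1281 and 754 at 3 h, and 1771 and 1120 at 6 h. With the replicate number as a block, the 315 calls at 1.5 h became 201. With library-size scaling these splits were 165 and 216, 650 and 1887, and 1141 and 1799, with the median log2 fold change of all genes at −0.09, −0.34 and −0.24, and with RLE size factors the split at 1.5 h was 194 and 84.

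Arc messenger RNA was scarce in untreated astrocytes, highest at 1.5 h, lower at 3 h and lower again at 6 h. In the 3 control libraries it measured 0.467, 0.628 and 0.394 FPKM, from 23, 37 and 19 counts. After 1.5 h with PT109B the libraries measured 22.3, 22.9 and 26.5 FPKM. The 1.5 h libraries lay far above every control library and were within a narrow range of each other. At 3 h they measured 9.08, 9.75 and 4.83 FPKM, the last value being that of the library that stood apart. At 6 h they measured 1.47, 0.965 and 1.39 FPKM, so that every 6 h library was still above every control library. The order of the levels was therefore control, 6 h, 3 h and 1.5 h, and no neighbouring groups in this order overlapped.

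**Figure D1:**
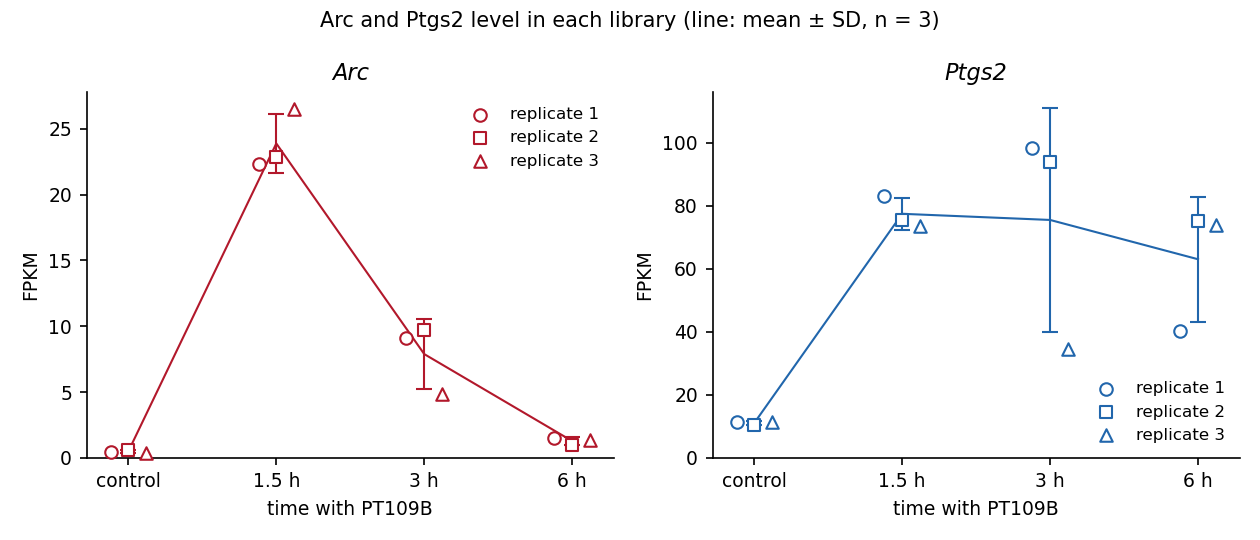
FPKM of Arc (left) and Ptgs2 (right) in each library, by time with PT109B. Symbols are libraries, the line joins group means and the bars are ± SD (n = 3). Arc was at 22.3 to 26.5 FPKM at 1.5 h and at most 1.47 at 6 h, while Ptgs2 at 6 h was still at 40.1 to 75.2 FPKM.

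On the scale of log2 fold change against control, fitted in edgeR to counts of all libraries, Arc stood at 5.65 ± 0.36 (SE) at 1.5 h, the fifth-largest positive value among 9491 genes. It stood at 4.30 ± 0.34 at 3 h and at 1.54 ± 0.33 at 6 h, where it had rank 384. In mean FPKM these were 48.1-fold, 15.9-fold and 2.57-fold the control level. Between treated groups the log2 fold change of Arc was −1.35 ± 0.29 from 1.5 h to 3 h and −2.76 ± 0.31 from 3 h to 6 h. Arc had rank 9483 of 9491 in the latter comparison, close to the largest drop of all. It went from a position above 7.92% of the genes in the table by mean FPKM in the control to one above 78.2% at 1.5 h, and stood above 17.6% at 6 h. The control counts carry wide counting error, with 95% Poisson intervals from 11.4 to 51.0 counts over the 3 libraries (counting error only). The size of each fold change against control is therefore imprecise. The 6 h counts were low too (76, 48 and 61). The SE was 0.33 to 0.36 against control and 0.29 to 0.33 between treated groups.

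Ptgs2 was already present in untreated astrocytes and was high at all 3 treated times. The control libraries measured 11.4, 10.4 and 11.4 FPKM. At 1.5 h they measured 83.2, 75.6 and 73.6 FPKM, all above the control and close to each other. At 3 h the values were 98.3, 93.8 and 34.5 FPKM. At 6 h they were 40.1, 75.2 and 73.8 FPKM. No treated library overlapped the control, whereas the 3 treated groups overlapped each other, and the lowest library at 3 h and at 6 h was in each case the one that stood apart.

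The log2 fold change of Ptgs2 against control was 2.88 ± 0.43 at 1.5 h, 3.11 ± 0.44 at 3 h and 2.73 ± 0.43 at 6 h, with ranks of 30, 70 and 85 among 9491 genes. Between 1.5 h and 3 h it was 0.23 ± 0.40, and between 1.5 h and 6 h −0.15 ± 0.40, both within the spread between libraries. The sign of the first of these differences was not stable: with library-size scaling it was −0.07 and on log2(FPKM + 0.1) −0.18. The CPM varied by 6.15% of its mean (CV) between the 1.5 h libraries, by 53.0% at 3 h and by 37.2% at 6 h, against 5.69% in the control. By mean FPKM Ptgs2 stood above 57.0% of the genes in the control and above 93.8%, 93.6% and 92.6% at 1.5 h, 3 h and 6 h.

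The sequence before the Ptgs2 start site is shown because the gene's published regulation rests on a short proximal promoter. The 250 bases before the start lie at chr13:64713813-64714062 on the plus strand of GRCr8 (RefSeq), and the capitals mark the 2 motifs found there.
Ptgs2 promoter: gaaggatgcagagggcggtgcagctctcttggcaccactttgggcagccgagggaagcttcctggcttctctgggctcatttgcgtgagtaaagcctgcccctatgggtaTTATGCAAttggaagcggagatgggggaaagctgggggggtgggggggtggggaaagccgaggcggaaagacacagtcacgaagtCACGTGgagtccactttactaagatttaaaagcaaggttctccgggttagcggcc
The capitals TTATGCAA, 140 to 133 bases before the start, match the C/EBP pattern TTNNGNAA, and the capitals CACGTG, 55 to 50 bases before it, are an E-box. Over 33469 rat promoter windows of the same length, 37.2% held the C/EBP pattern and 5.59% the E-box on either strand. Of the other patterns searched on both strands, none was in this window: the cAMP response element (CRE) TGACGTCA, its core CGTCA, the AP-1 site TGANTCA, the EGR site GCGNGGGCG, TATAAA, the CArG box and the NF-kB site. A match describes letters only, and no match says nothing about binding elsewhere.

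Set side by side, the members differed by how much of their early difference from control was left. Of the difference in mean CPM between 1.5 h and control, Arc kept 38.0% at 3 h and 3.88% at 6 h. Ptgs2 kept 119.8% at 3 h and 88.8% at 6 h. Library by library the share at 6 h was 4.24%, 2.72% and 4.69% for Arc and 44.0%, 113% and 109% for Ptgs2, so the lowest Ptgs2 library was above the highest Arc library. At 3 h the shares were 46.3%, 48.6% and 19.1% for Arc and 167%, 155% and 37.2% for Ptgs2, and there the lowest Ptgs2 library lay below the 2 highest Arc libraries. The ratio of Ptgs2 to Arc in FPKM, which can be compared between genes because it is per length, was 16.5 to 29.0 in the control, 2.78 to 3.73 at 1.5 h, 7.15 to 10.8 at 3 h and 27.3 to 77.9 at 6 h. No group overlapped another in this ratio except control and 6 h, which overlapped between 27.3 and 29.0.

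Both members were higher than control without overlap at all 3 times. Of all genes tested, 12.9% were higher without overlap at 1.5 h, 23.4% at 3 h and 28.2% at 6 h. Arc was lower without overlap at 3 h than at 1.5 h, as were 16.6% of genes, at 6 h than at 3 h, as were 11% of genes, and at 6 h than at 1.5 h, as were 22.2%. Since the pair was chosen on these values, nothing is read from these counts.

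The libraries that stood apart differed for the 2 members. At 1.5 h replicate 3, with a summed microglia marker CPM at 1047% of that of the other pair, Arc was at 119% and Ptgs2 at 93.9% of the pair's mean CPM. At 3 h replicate 3, with mitosis genes at 896% of the pair, Arc was at 42.7% and Ptgs2 at 29.9%. At 6 h replicate 1, with mitosis genes at 973% of the pair, Arc was at 109% and Ptgs2 at 47.1%. Of the 3 h and 6 h libraries, Ptgs2 was thus low in both of those with high mitosis genes, and Arc in the 3 h one alone. At 1.5 h all 3 libraries had mitosis genes at 1557 to 1829 summed CPM, above the 1254 and 1204 of those 2. Ptgs2 was high there, at 455 to 509 CPM. The part of microglia, dividing cells or the other cell types in these values was not tested. In a fit to the other 9 libraries the log2 fold changes against control at 1.5, 3 and 6 h were 5.55, 4.53 and 1.38 for Arc and 2.91, 3.43 and 2.93 for Ptgs2. Without those libraries Ptgs2 was highest at 3 h (98.3 and 93.8 FPKM) and lower at 1.5 h (83.2 and 75.6) and at 6 h (75.2 and 73.8). The 6 h pair lay just below the 1.5 h pair in FPKM. In CPM it lay just above it (530 and 511 against 509 and 461), so their order depended on the scale. The 3 libraries left out were nearer the control than the kept pairs in some marker lists. Microglia markers at 1.5 h summed to 4022 CPM there, 390 and 378 in the kept pair and 3133 to 3796 in the control. Mitosis genes at 3 h and 6 h were at 113 to 149 CPM in the kept pairs, against 1641 to 2232 in the control. Fibroblast and meningeal markers at 6 h went the other way. In the libraries left out Ptgs2 was at 73.6, 34.5 and 40.1 FPKM at 1.5, 3 and 6 h. Counts of called genes were far higher in the 9-library fit, at 59.2%, 70.9% and 75.1% of all genes at 1.5, 3 and 6 h. Each list count below is therefore read against the fit to all 12 libraries. The counts in the 9 libraries are given with the limits.

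**Figure D2:**
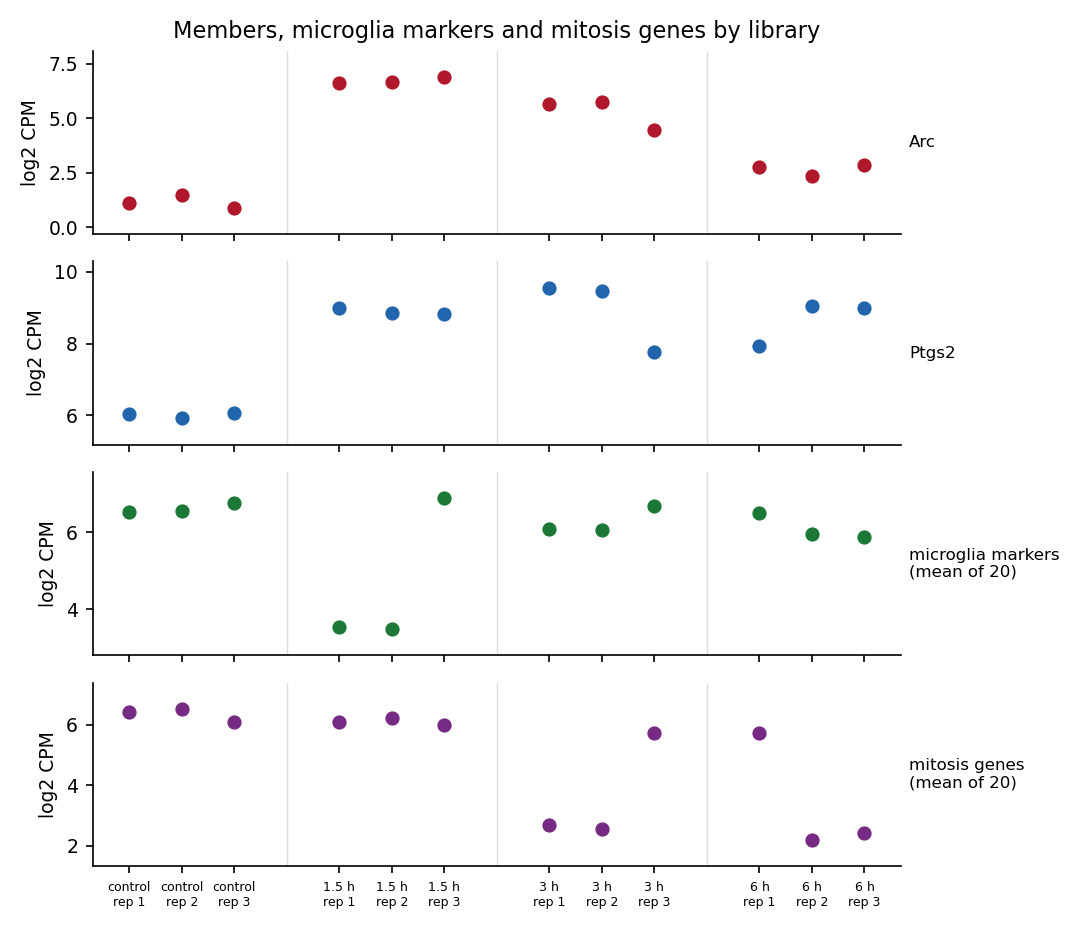
Levels in each of the 12 libraries on a log2 CPM axis, for Arc, Ptgs2, the mean of 20 microglia markers and the mean of 20 mitosis genes. Microglia markers are at 3.49 and 3.55 in 1.5 h replicates 1 and 2, and mitosis genes at 2.68 or less in 2 libraries at 3 h and 2 at 6 h.

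Ptgs1, the other cyclooxygenase (ENSRNOG00000007415), was the more abundant of the 2 isozymes in untreated cells and the less abundant one in most treated libraries. Its FPKM was 48.1, 50.0 and 55.3 in the control and 15.2, 15.0 and 52.9 at 1.5 h. At 3 h it was 37.7, 37.3 and 48.3, and at 6 h 45.5, 42.1 and 37.1. The 2 low libraries at 1.5 h were those with low microglia markers, and in the third Ptgs1 was at 355% of their mean CPM. Ptgs1 was not called at any time, with log2 fold changes of −0.81 ± 0.40, −0.04 ± 0.40 and −0.10 ± 0.40 at 1.5, 3 and 6 h (edgeR adjusted p of 0.277, 0.953 and 0.859). Without 1.5 h replicate 3 it was called lower at 1.5 h, as in the fit to 9 libraries (−1.70).

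Ptgs2 made up 17.1% to 19.2% of the summed Ptgs1 and Ptgs2 FPKM in the control. At 1.5 h its share was 84.6%, 83.4% and 58.2%. At 3 h it was 72.3%, 71.5% and 41.7%, and at 6 h 46.9%, 64.1% and 66.6%. Every treated library had a higher Ptgs2 share than every control library, and Ptgs2 was the smaller part in 2 treated libraries, 3 h replicate 3 and 6 h replicate 1. The sum itself was 59.4 to 66.7 FPKM in the control, 90.6 to 126 at 1.5 h, 82.9 to 136 at 3 h and 85.6 to 117 at 6 h.

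**Figure D3:**
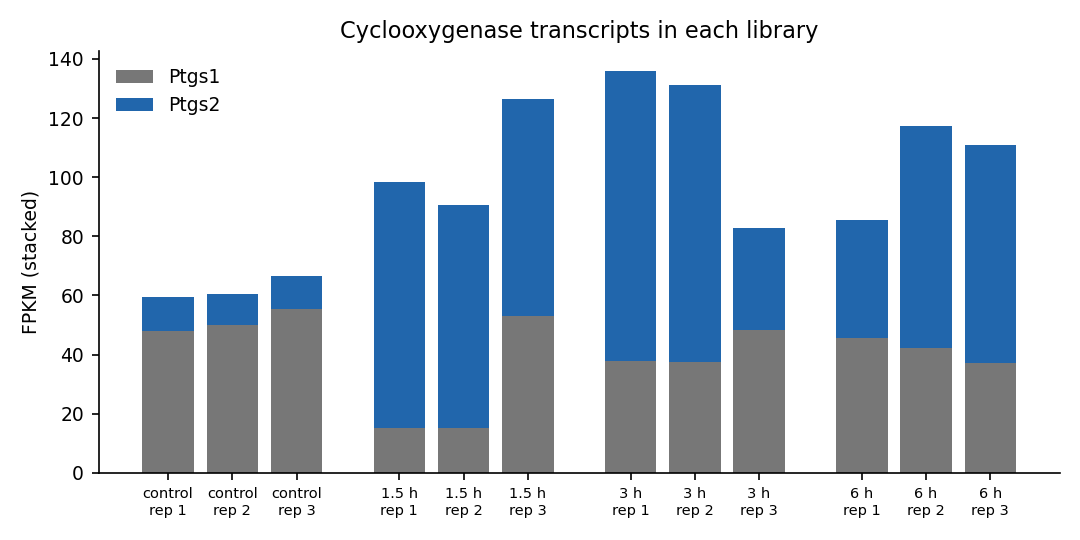
Stacked bars of Ptgs1 (grey) and Ptgs2 (blue) FPKM in each library, from a baseline of 0. Ptgs2 is 17.1% to 19.2% of the bar in the control libraries and 41.7% to 84.6% in the treated ones.

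The genes that make, sense or clear prostanoids were called about as often as genes in general. Of 15 genes of prostanoid synthesis other than Ptgs2, 9 were tested. None was called at 1.5 h, where 3.32% of all genes were called (1.95% higher and 1.37% lower). At 3 h 1 rose, where 21.4% of all genes were called (13.5% higher and 7.94% lower), and at 6 h 1 rose, where 30.5% were (18.7% higher and 11.8% lower). Their median log2 fold change was −0.18, 0.15 and −0.10 at the 3 times, beside −0.01, −0.03 and −0.02 over all genes tested. The gene that rose at 3 h was Pla2g6, a calcium-independent phospholipase, at a log2 fold change of 0.60 ± 0.19 (adjusted p = 0.0435). The call was lost in 10 of 17 alternatives. The one at 6 h was Ptges2, a membrane-associated prostaglandin E synthase, at 0.89 ± 0.25 (adjusted p = 0.0219), from 19.1, 19.2 and 21.3 FPKM in the control to 38.2, 27.1 and 31.8. That call was lost in 7 of 17. Thromboxane synthase, Tbxas1, was not called (−0.95 ± 0.54 at 1.5 h) and, like Ptgs1, was low in the 1.5 h libraries with low microglia markers, at 10.3 and 8.93 FPKM against 50.9 in replicate 3. The counts of this list depended on single libraries: 6 members were called at 1.5 h without 1.5 h replicate 3, 0 at 3 h without any 1 of the control libraries or of 3 h replicates 1 and 2, 0 at 6 h without any 1 of the control libraries or of 6 h replicates 2 and 3, and 2 at 6 h without 6 h replicate 1.

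Among the prostanoid receptors 5 of 10 were tested, and Ptger1, which encodes the EP1 receptor for prostaglandin E2 and signals through calcium, was the 1 member called at each time, beside 3.32%, 21.4% and 30.5% of all genes. Its FPKM was 6.55, 6.42 and 7.71 (control), 2.29, 3.05 and 3.52 (1.5 h), 1.86, 1.42 and 1.45 (3 h) and 1.63, 1.04 and 0.604 (6 h). Each treated library was below every control library. It fell by 1.11 ± 0.22, 1.77 ± 0.23 and 2.39 ± 0.24 on the log2 scale (edgeR adjusted p = 0.0239, 0.000601 and 0.000122). The calls at 3 h and 6 h held in all 17 alternatives, while that at 1.5 h was lost in 7: without any 1 control library, without 1.5 h replicate 1 or 2, on log2(FPKM + 0.1) and with the replicate block (adjusted p = 0.0623). The other EP receptors, Ptger2, Ptger3 and Ptger4, were not called at any time, with control means of 10.1, 2.22 and 4.09 CPM. Ptger2 and Ptger4 were at 1.25 FPKM or less in 1.5 h replicates 1 and 2 and at 4.48 and 4.86 in replicate 3, and without that library 3 receptors were called at 1.5 h, with the log2 fold change of Ptger4 at −1.56 in place of 0.20.

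Of 8 genes of prostanoid transport and breakdown 6 were tested. None was called at 1.5 h, 2 rose at 3 h, and at 6 h 2 rose and 1 fell, with medians of −0.13, 0.48 and 0.32, beside 3.32%, 21.4% and 30.5% of all genes called. Cbr3, a carbonyl reductase, rose at 3 h (1.10 ± 0.29, adjusted p = 0.0251) and 6 h (1.32 ± 0.29, adjusted p = 0.00719), and its relative Cbr1 rose at 6 h (0.84 ± 0.29, adjusted p = 0.0476), a call lost in 12 of 17 alternatives. Abcc4, which exports prostaglandins, rose at 3 h (0.72 ± 0.20, adjusted p = 0.0279). The 3 h calls of Cbr3 and Abcc4 were lost in 5 and 7 of 17 alternatives. Hpgd, the enzyme that inactivates prostaglandin E2, was scarce and fell by 6 h, from 0.844, 0.609 and 0.549 FPKM in the control to 0.073, 0.114 and 0.086 (log2 fold change −2.61 ± 0.59, edgeR adjusted p = 0.00811). Its counts were 22, 19 and 14 in the control and 2, 3 and 2 at 6 h, so the size of this fall is imprecise. The prostaglandin uptake carrier Slco2a1 (0.64 ± 0.36 at 1.5 h) and the reductase Ptgr1 (−0.45 ± 0.28) were not called. The 2 calls at 3 h became 0 without any 1 control library or 3 h replicate 1 or 2, and 4 without 3 h replicate 3, and the 0 calls at 1.5 h became 1 without 1.5 h replicate 3.

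Some of the known regulators of Ptgs2 transcription and messenger RNA stability were called. Of 30, 25 were tested: 2 rose and 1 fell at 1.5 h, 8 rose and 1 fell at 3 h, and 6 rose and 3 fell at 6 h, with medians of 0.12, 0.20 and 0.18. Of all genes 3.32%, 21.4% and 30.5% were called, and at 6 h the count lay near that share. Zfp36, which encodes tristetraprolin, rose at all 3 times, by 1.72 ± 0.19, 1.06 ± 0.19 and 1.02 ± 0.19 (adjusted p = 0.000663, 0.00364 and 0.00284), from 20.2, 17.1 and 25.0 FPKM in the control to 59.7, 60.3 and 74.5 at 1.5 h. Its relative Zfp36l1 was the other gene that rose at 1.5 h. Nfkb2, an NF-kB subunit, was not called at 1.5 h (−0.05 ± 0.18) and rose at 3 h (0.82 ± 0.18, adjusted p = 0.0105) and 6 h (1.43 ± 0.18, adjusted p = 0.000423), the earlier call being lost in 5 of 17 alternatives. Nfatc2, a calcium-regulated transcription factor, rose at 3 h (1.80 ± 0.36, adjusted p = 0.00723) and 6 h (1.05 ± 0.36, adjusted p = 0.0475), the later call being lost in 11 of 17 alternatives. Cebpd, one of the C/EBP factors, went the other way: it fell by 1.40 ± 0.22 at 1.5 h, 1.39 ± 0.22 at 3 h and 0.77 ± 0.22 at 6 h (adjusted p = 0.00644, 0.00196 and 0.0231), and the 6 h call was lost in 5 of 17. Without 1.5 h replicate 3 the 3 calls at 1.5 h became 11, and without 3 h replicate 1 or 2 the 9 calls at 3 h became 5.

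Inflammatory and growth factor genes often induced together with Ptgs2 rose in part, and none fell. Of 27, 25 were tested, of which 4 rose at 1.5 h, 12 at 3 h and 15 at 6 h, beside 1.95%, 13.5% and 18.7% of all genes called higher. Their median log2 fold change was 0.23, 0.95 and 1.41. Lif, a cytokine of the interleukin-6 family, had 10.7, 11.6 and 10.5 FPKM in the control, 177, 170 and 227 at 1.5 h and 166, 116 and 115 at 6 h. It rose by 4.21 ± 0.24, 4.13 ± 0.24 and 3.78 ± 0.24 (adjusted p = 1.77e-05, 1.1e-05 and 1.34e-05). Like Ptgs2, it was high at all 3 times. Hbegf, a ligand of the epidermal growth factor receptor, rose by 2.54 ± 0.15, 3.31 ± 0.15 and 2.91 ± 0.15 (adjusted p = 1.77e-05, 1.55e-06 and 5.11e-06). Ereg, a second such ligand, and the cytokine Il11 also rose at the 3 times, with largest log2 fold changes at 3 h of 3.82 ± 0.57 and 3.45 ± 0.41, and their 1.5 h calls were lost in 7 and 2 of 17 alternatives, that of Ereg also with the replicate block (adjusted p = 0.0787). The chemokine gene Cxcl1 and the adhesion gene Vcam1 were not called (0.23 ± 0.21 and −0.51 ± 0.22 at 1.5 h). The count of 4 at 1.5 h became 2 without control replicate 1 and 9 without 1.5 h replicate 3, the library with high microglia markers. Microglia also express many genes of this list, and their part in it was not tested.

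Arc belongs to a wider class of activity-induced genes, and most transcription factors of that class rose. Of 21 such factors 20 were tested, and 15 rose at 1.5 h, 19 at 3 h and 14 at 6 h, with medians of 2.59, 2.41 and 1.73 and none called lower, beside 1.95%, 13.5% and 18.7% of all genes called higher. From 1.5 h to 6 h 11 of the 20 fell and 2 rose, with a median of −1.53, beside 17.1% of all genes called lower and 20.5% called higher. Fosb, an AP-1 subunit, measured 0.237, 0.089 and 0.272 FPKM in the control, 19.6, 19.7 and 29.8 at 1.5 h, 15.3, 15.0 and 2.74 at 3 h, and 1.33, 1.16 and 1.17 at 6 h. Its fall from 1.5 h to 6 h was −4.11 ± 0.63 (adjusted p = 0.00109), beside −4.11 ± 0.33 for Arc. Egr1, a zinc finger factor, went from 6.42, 7.21 and 10.8 FPKM to 254, 259 and 231 at 1.5 h and 44.4, 48.9 and 48.7 at 6 h. Its relative Egr2 rose by 5.56 ± 0.47 at 1.5 h and 2.75 ± 0.43 at 6 h (adjusted p = 9.8e-05 and 0.00119). Nr4a1, an orphan nuclear receptor, was at 1.43, 1.17 and 2.01 FPKM in the control, 78.4, 80.6 and 115 at 1.5 h, 95.2, 86.2 and 15.6 at 3 h and 3.68, 11.1 and 13.0 at 6 h, where replicate 1 was again the lowest. Fos rose by 3.20 ± 0.28 at 1.5 h (adjusted p = 0.00011), and its smaller rise at 3 h (0.84 ± 0.26, adjusted p = 0.0438) was lost in 11 of 17 alternatives. Npas4, a factor regarded as selective for neuronal activity, stayed low: 0.210, 0.110 and 0.134 FPKM in the control, 1.94, 1.83 and 1.04 at 1.5 h, 0.252, 0.131 and 1.82 at 3 h, and 0.399, 0 and 0.029 at 6 h. It was not called against control (3.46 ± 1.10 at 1.5 h, adjusted p = 0.119), although its 3 libraries at 1.5 h were above the control, and it was called at 1.5 h without replicate 3 and with DESeq2. Its drop from 1.5 h to 6 h was called (−3.37 ± 1.10, adjusted p = 0.0346).

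**Figure D4:**
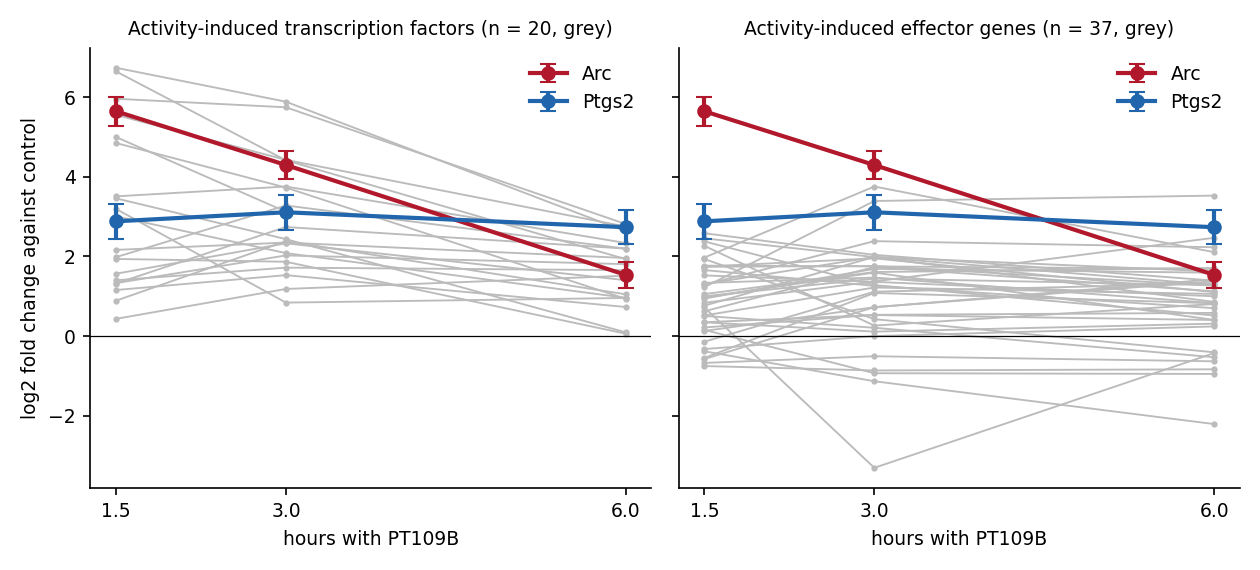
Log2 fold change against control at 1.5, 3 and 6 h for the tested activity-induced transcription factors (left, 20 grey lines) and effector genes (right, 37 grey lines), with Arc (red) and Ptgs2 (blue) ± SE. Arc lies among the highest lines at 1.5 h and at 1.54 by 6 h, and Ptgs2 stays between 2.73 and 3.11.

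Effector genes of the activity response, the class to which Arc and Ptgs2 are usually assigned, were less uniform. Of 39 (Arc and Ptgs2 not counted) 37 were tested: 17 rose and 1 fell at 1.5 h, 23 rose and 2 fell at 3 h, and 22 rose and 3 fell at 6 h, with medians of 0.94, 1.28 and 1.00. Of all genes 1.95%, 13.5% and 18.7% were called higher and 1.37%, 7.94% and 11.8% lower. From 1.5 h to 6 h 9 rose and 9 fell, beside 20.5% of all genes called higher and 17.1% lower. Arc and Ptgs2 were chosen on these levels. No effector in the list had a log2 fold change at 1.5 h as large as theirs. The largest was that of Trib1, a pseudokinase gene, at 2.58 ± 0.26 (edgeR adjusted p = 0.000336), within the SE of Ptgs2 (2.88 ± 0.43). The FPKM of Trib1 went from 16.7, 18.4 and 20.7 in the control to 103, 101 and 114 at 1.5 h. Trib1 was lower by 6 h, at 40.2 to 45.1 FPKM, and still above the control (1.39 ± 0.25, adjusted p = 0.00247). Dusp4, a phosphatase that acts on MAP kinases, was highest at 3 h (3.76 ± 0.34, adjusted p = 8.76e-05). Nptx1, a neuronal pentraxin, was not called at 1.5 h (1.23 ± 0.30, adjusted p = 0.0512) and rose at 3 h and 6 h (3.39 ± 0.31 and 3.53 ± 0.31). Inhba, an activin subunit, rose at 6 h (2.47 ± 0.50, adjusted p = 0.00446) and was not called before (0.84 ± 0.49 and 1.37 ± 0.49). Homer1, whose short form is induced by activity in neurons, was not called at any time (0.35 ± 0.21, 0.11 ± 0.21 and 0.31 ± 0.21), with 5.58 to 7.26 FPKM in the control and 5.21 to 9.63 in the treated libraries. The neuropeptide gene Penk and Amigo3 were not called against control either. The 18 calls at 1.5 h became 8, 9 and 8 without control replicate 1, 2 or 3 and 11 and 10 without 1.5 h replicate 1 or 2, and the 25 calls at 6 h became 16 without control replicate 1. Neuron markers as a list had 0 of 19 called at 1.5 h and 1 (Tubb3, higher) at 3 h and at 6 h. Their part in the activity-induced genes was not tested.

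Partners and regulators of Arc were called against control no more often than genes in general at 3 h and 6 h, and from 1.5 h to 6 h several of them fell. Of 42 genes 27 were tested: 1 rose at 1.5 h, 4 rose at 3 h, and 5 rose and 1 fell at 6 h, with medians of 0.27, −0.10 and −0.08, beside 3.32%, 21.4% and 30.5% of all genes called. Srf, the transcription factor that binds CArG boxes of immediate early genes, was the one at 1.5 h, with 13.7, 14.2 and 11.6 FPKM in the control and 30.5, 34.8 and 29.2 at 1.5 h (1.33 ± 0.11, adjusted p = 8.72e-05). It also rose at 3 h (1.00 ± 0.11, adjusted p = 0.000184), and its call at 6 h (0.35 ± 0.10, adjusted p = 0.03) was lost in 10 of 17 alternatives. Crtc1, a coactivator of CREB, and Dlg4, the postsynaptic scaffold PSD-95, rose at 3 h (0.58 ± 0.11 and 0.70 ± 0.10) and 6 h (1.02 ± 0.11 and 0.85 ± 0.10). The adjusted p of these was 0.00617 and 0.00105 at 3 h and 0.000226 and 0.00026 at 6 h. Fmr1, an RNA-binding protein of Arc messenger RNA, fell at 6 h (−0.93 ± 0.26, adjusted p = 0.0215), a call lost in 4 of 17. Dynamin 2 (Dnm2), of the endocytic machinery, and Notch1 were not called at any time. The count at 1.5 h became 9 without 1.5 h replicate 3, that at 3 h became 9 without 3 h replicate 3, and the 6 calls at 6 h became 3 without control replicate 1, 6 h replicate 2 or 6 h replicate 3.

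From 1.5 h to 6 h 4 of the 27 partners and regulators rose and 9 fell, beside 20.5% and 17.1% of all genes, and their median was −0.02. Among those that fell were the AMPA receptor subunit genes Gria1, Gria2 and Gria4, whose receptors Arc removes from synapses, at −1.76 ± 0.47, −1.91 ± 0.29 and −2.12 ± 0.59 (edgeR adjusted p = 0.0143, 0.000992 and 0.0173). The NMDA receptor subunit gene Grin2b fell by 1.64 ± 0.46 (edgeR adjusted p = 0.0187), but was scarce, at 0.063 to 0.71 FPKM over all libraries. Gria4 was low too, at 2.53, 3.46 and 0.535 FPKM at 1.5 h and 0.391, 0.454 and 0.71 at 6 h. Its 1.5 h replicate 3 thus lay within the 6 h range. Gria2 measured 7.48, 7.84 and 7.62 FPKM in the control, 21.4, 20.6 and 8.58 at 1.5 h, 4.72, 4.93 and 6.37 at 3 h and 3.94, 4.11 and 4.66 at 6 h, so that 1.5 h replicate 3 was near the control and the other pair well above it. None of these 4 genes was called against control at any time. The 13 calls became 8 without 1.5 h replicate 1 or 2. In these 2 libraries the markers of neurons and of oligodendrocyte lineage were also higher than in 1.5 h replicate 3 (mean log2 CPM of 4.17 and 4.08 against 3.30, and 5.66 and 5.73 against 4.52), and the part of such cells was not tested.

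The genes whose levels most resembled those of each member over the 12 libraries were different for the 2. The Pearson r of log2 CPM was computed with each of 9266 genes of at least 1 CPM on average and is a description, since the libraries share groups and the splits within them. For Arc the 8 highest were Klf10 (r = 0.979), Srf (0.978), Fosb (0.972), Egr3 (0.970), Btg2 (0.966), Noct (0.964), Egr4 (0.962) and Bbc3 (0.962). For Ptgs2 they were Klf4 (0.982), H4f3 (0.978), Ppp1r15a (0.973), Klf2 (0.971), Jun (0.969), Ifrd1 (0.963), Areg (0.962) and Gdf15 (0.962). Arc and Ptgs2 had r = 0.758 with each other, and Ptgs2 was number 142 for Arc. The lists depended on the libraries: in the 9 libraries that did not stand apart, 1 of the 8 for Arc and 2 of the 8 for Ptgs2 were again among the first 8.

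Klf10, a zinc finger gene, measured 15.5, 16.4 and 14.6 FPKM in the control, 81.9, 78.7 and 73.4 at 1.5 h, 61.3, 61.0 and 36.8 at 3 h and 20.8, 16.1 and 15.1 at 6 h. Btg2, an antiproliferative gene, measured 48.0, 54.0 and 58.9 FPKM at 1.5 h and 15.7, 12.2 and 12.9 at 6 h, against 10.1, 10.2 and 12.3 in the control. Both were far below their 1.5 h level at 6 h, as Arc was. Klf4, a zinc finger factor, measured 7.41, 6.30 and 5.64 FPKM in the control, 29.2, 23.6 and 29.1 at 1.5 h, 28.5, 32.1 and 19.5 at 3 h and 13.4, 27.2 and 24.2 at 6 h. Areg, a ligand of the epidermal growth factor receptor, measured 6.40, 7.91 and 4.84 FPKM in the control, 65.5, 59.0 and 14.1 at 3 h and 14.6, 33.2 and 29.1 at 6 h. In both, 3 h replicate 3 and 6 h replicate 1 were the lowest libraries of their group, as for Ptgs2. All of these genes were picked for their likeness to a member over the same libraries, so a shared course was bound to appear.

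Promoter windows of 5 of the 8 genes like Arc and 6 of the 8 like Ptgs2 were in the RefSeq table (GRCr8). The sites shown are the full CRE palindromes and the CArG boxes in them, since these elements are textbook targets of CREB and Srf in immediate early genes. Capitals mark the match, with 10 bases on each side.
Srf, chr9:21923985-21924014, plus strand, first CArG box: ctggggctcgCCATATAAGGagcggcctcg
Srf, chr9:21924005-21924034, plus strand, second CArG box: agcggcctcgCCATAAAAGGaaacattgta
Btg2, chr13:48087874-48087901, minus strand, CRE: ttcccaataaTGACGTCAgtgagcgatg
Ppp1r15a, chr1:105139645-105139672, minus strand, CRE: gcctctccggTGACGTCAgcatagcgct
Areg, chr14:17265715-17265742, minus strand, CRE: aggagaggcgTGACGTCAcgggcggtgg
The full CRE was thus in 1 of 5 windows like Arc and 2 of 6 like Ptgs2, beside 1.59% of all 33469 windows. The CArG box was in 1 of 5 and 0 of 6, beside 1.5%. The CRE core CGTCA, which the full CRE contains, was in 3 of 5 and 3 of 6, beside 18.2%. The EGR site was in 2 of 5 (Srf and Btg2) and 1 of 6 (Ifrd1), beside 4.29%, and TATAAA in 2 of 5 and 4 of 6, beside 12.9%. The C/EBP pattern, also present in the Ptgs2 window, was in 1 of 5 (Fosb) and 2 of 6 (Klf4 and Ppp1r15a), beside 37.2%, and the NF-kB site in 1 of 5 (Egr4) and 0 of 6, beside 6.33%. The AP-1 site and the E-box were in none of the windows of the genes like Arc or Ptgs2. With so few windows these counts are descriptions.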

How the data were processed

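Bulk RNA-seq values of 12 libraries, 3 in each of 4 groups set by the sample labels, were analysed. Per the file headers, the authors deposited 2 values for each gene in each library, an estimated (expected) count and an FPKM. The submitters' processing notes name StringTie 2.2.1; aligner, build and annotation: not given in the sources used here. The authors' estimated counts were not whole in 9.49% of cases and were rounded, a step not foreseen in the planned test. The table holds 9721 genes, a part of a rat genome's, and the rule behind that choice is not known, so adjusted p-values refer to this set.

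Counts were filtered (filterByExpr, 230 genes removed), scaled by TMM and fitted in edgeR 4.0.16 (R 4.3.3, robust quasi-likelihood) over all libraries, with no term but the group. A gene was called where its Benjamini-Hochberg adjusted p was below 0.05. The prior count was 0.125 for fold changes and 2 for log2 CPM, and SE came from the fold change and F value. FPKM as deposited by the authors served to compare genes with each other and for alternatives with limma 3.58.1. Other alternatives were DESeq2 1.42.0, other scalings and filters, a replicate block, each library left out, and a 9-library fit chosen after seeing the data. The labels do not say what a replicate number marks. Same-numbered libraries deviated together from their group means in each pair for control and 1.5 h (r = 0.200, 0.368 and 0.451) and for 1.5 h and 3 h (0.179, 0.166 and 0.224), so the block is given beside the 1.5 h calls it changed. In the other pairs of groups r ran from −0.657 to 0.599. In simulated counts of 9348 genes, at 1.5, 3 and 6 h, edgeR found 41%, 40% and 42% of the 2-fold changes, 83%, 81% and 82% of the 4-fold ones, and made 4, 9 and 5 false calls. The changes were planted only in genes above a set control level, which Arc (2.09 CPM) did not reach. Genes were drawn independently and no library was made to stand apart, so these figures need not hold for the real libraries.

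The 2 members and the 15 gene lists were chosen with earlier results of these data known. Named from each list were up to 4 called members with the largest fold change and at least 2 CPM, and up to 2 uncalled members with the highest CPM, besides Ptgs1, Hpgd, the EP receptors, Egr1, Fos, Nr4a1 and Homer1. For a symbol on more than 1 line (58 symbols) the gene with the highest count was used. Zfp36l1, Tubb3, Sox9, Fgfr3, Nfib, Gria1, Gria2, Gria4 and Grin2b were named after their values were seen. The uncalled members named from the list of Ptgs2 regulators are not reported here. Promoter windows came from RefSeq (GRCr8) by symbol, of which 9155 matched. Gene copies and overlapping genes may have shared counts, which was not checked. Markers of oligodendrocyte lineage (11 tested), fibroblasts and meninges (11) and endothelium (8) had 0 called at 1.5 h and 1 each at 3 h and 6 h.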

Additional observations from a re-analysis of the deposited data

How the results depend on the processing

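Beside the fit reported, 11 alternatives and the omission of each library were run. The log2 fold changes of Arc and Ptgs2 against control were positive in all of them. Only the log2(FPKM + pseudocount) scale, which shrinks low genes, moved Arc by more than the SD between libraries of a group (0.24, 0.54 and 0.28 at 1.5, 3 and 6 h, on log2 CPM): to 5.34, 3.70 and 1.20 at 1.5, 3 and 6 h with a pseudocount of 0.1, and with 1 to 4.06, 2.52 and 0.60, −1.92 from 3 h to 6 h and −3.46 from 1.5 h to 6 h. With 1, Ptgs2 at 1.5 h was 2.70. Leaving out 1 library, Arc ranged from 5.51 to 5.86 at 1.5 h, 4.05 to 4.54 at 3 h, 1.37 to 1.75 at 6 h, −1.62 to −1.13 from 1.5 h to 3 h, −3.08 to −2.58 from 3 h to 6 h and −4.30 to −4.02 from 1.5 h to 6 h. Ptgs2 ranged from 2.83 to 2.91, 2.78 to 3.43, 2.48 to 3.02, −0.12 to 0.53, −0.78 to −0.10 and −0.42 to 0.13 in the same order of comparisons, so the sign between treated times was open for 2 of its 3 differences.

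Members called in the 9-library fit at 1.5 h, 3 h, 6 h and from 1.5 h to 6 h were 20, 19, 18 and 17 of the activity-induced transcription factors, 33, 33, 32 and 29 of the effectors, 21, 19, 19 and 22 of the Arc partners, 6, 5, 8 and 8 of prostanoid synthesis, 5, 3, 3 and 3 of the receptors, 4, 6, 5 and 5 of transport and breakdown, 19, 19, 17 and 21 of the Ptgs2 regulators, and 20, 21, 23 and 18 of the inflammatory genes. In it Npas4 was at −3.001 at 6 h (0.09 in all libraries) and Ptger4 at −1.57 at 1.5 h, and with 1 library left out Ptger4 ranged from −1.56 (without 1.5 h replicate 3) to 0.66. Leaving out 1 library gave, in the same order of comparisons, 10 to 18, 16 to 19, 10 to 14 and 10 to 12 (transcription factors), 8 to 22, 19 to 27, 16 to 23 and 13 to 22 (effectors), 1 to 9, 3 to 9, 3 to 9 and 8 to 15 (Arc partners), 0 to 6, 0 to 1, 0 to 2 and 1 to 6 (synthesis), 0 to 3, 1, 1 and 1 to 3 (receptors), 0 to 1, 0 to 4, 2 to 4 and 2 to 5 (transport), 2 to 11, 5 to 11, 6 to 9 and 6 to 18 (regulators), and 2 to 9, 9 to 12, 11 to 14 and 5 to 12 (inflammatory genes). From 1.5 h to 6 h the reported fit had 13, 18, 13, 2, 2, 4, 14 and 10.

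Other counts that moved by over 1.5 times were those of Arc partners at 1.5 h (2 without a filter on low counts, 3 with DESeq2) and 3 h (8 with DESeq2, 9 and 8 on FPKM with 0.1 and 1), of synthesis at 3 h (0 with library-size scaling and on FPKM, 2 with DESeq2 and in the fit to the 2 groups compared) and 6 h (3 with DESeq2, 2 on FPKM with 1 and in the 2-group fit), of transport at 3 h (1 with library-size scaling), of receptors at 1.5 h (0 on FPKM with 0.1) and of inflammatory genes at 1.5 h (2 with limma-voom). From 1.5 h to 6 h receptors had 1 with library-size scaling, without a filter and in the 2-group fit, synthesis had 1 with limma-voom, and the 2-group fit had 8 Arc partners, 0 of synthesis, 2 of transport, 8 regulators and 5 inflammatory genes. Of 66 calls on named genes against control, 44 held in every alternative. Of the other 22, most were lost when 1 control library or 1 of the 2 concordant treated libraries was left out. Of 72 results on named genes that were not called, 23 stayed so in every alternative. The other 49 were called in at least 1, many of them in the 9-library fit. That fit called 59.2% to 75.1% of all genes against control, so these counts do not compare the stability of called and uncalled results.

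Same-numbered libraries deviated together from their group means, for every number, in control with 1.5 h and 1.5 h with 3 h alone. The library that stood apart was replicate 3 at both 1.5 h and 3 h, and replicate 1 at 6 h. Control replicate 3 was also the least like the others of its group (r = 0.986 and 0.985, against 0.992). A pairing by number and this shared position of single libraries therefore cannot be told apart. With the replicate block the called genes numbered 201, 1608 and 2605 at 1.5, 3 and 6 h (315, 2035 and 2891 without it), and the members were at 5.67, 4.28 and 1.56 (Arc) and 2.88, 3.06 and 2.73 (Ptgs2). The block took the receptor count at 1.5 h and the synthesis count at 3 h to 0 and moved no other list count by over 1.5 times. Of the calls on named genes it ended those of Ptger1 and Ereg at 1.5 h, Pla2g6 and Fos at 3 h and Cbr1 at 6 h. DESeq2 called 801, 2770 and 3572 genes. Low counts limit Arc in the control, and 3 libraries a group, 1 of them apart in each treated group, limit every count.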
